A study of Zea mays with 318 samples.

Results

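The circadian clock of the maize kernel was examined through 10 gene models out of the 39625 in the tables. The models were named by gene identifier, as the maize copies of the central clock genes, and the rule used no expression value. Earlier results of these data were, however, known when the set was chosen. They were CCA1 (GRMZM2G474769) and LHY (GRMZM2G014902) on the morning side. On the evening side stood 2 models named TOC1, called here TOC1a (GRMZM2G020081) and TOC1b (GRMZM2G148453), together with gi1 (GRMZM2G107101) and gi2 (GRMZM5G844173). The remaining models were PRR73 (GRMZM2G095727), 2 models named PRR59, called here PRR59a (GRMZM2G135446) and PRR59b (GRMZM2G488465), and conz1 (GRMZM2G405368). RNA-seq libraries were made from whole kernels collected 5 days after selfing (5 DAP), when the kernel is still largely maternal tissue around a young endosperm and embryo. The panel held 318 inbred lines of tropical, subtropical and temperate origin, planted in Hainan in 3 field blocks, and the selfed seeds of all blocks were pooled into 1 library per line. The lines fell by the prefix of their names into 98 CIMBL lines, 40 CML lines, 46 GEMS lines and the remaining lines, which bear other names. No line had a second library, all lines were untreated, and neither the labels nor the methods gave an hour of collection.

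The plant clock is a set of genes that switch each other on and off over the day, so that each of them is high at its own hour. In Arabidopsis, CCA1 and LHY are related MYB transcription factors that peak around dawn and repress evening genes, among them TOC1 and GIGANTEA. The pseudo-response regulators (PRR proteins, of which TOC1 is itself a member) peak in sequence from morning to evening and repress CCA1 and LHY. GIGANTEA, of which gi1 and gi2 are the maize copies, links the clock to flowering, and conz1 is the maize relative of CONSTANS, a flowering regulator under clock control. The question put to the data was how the morning genes stood against the evening genes in each line, since in a plant tissue that balance turns with the hour of harvest.

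Depth ran from 6100624 to 29629212 assigned counts per library, with a median of 13625467.5. All 10 clock genes were counted in all 318 lines, and the lowest single value was 10 counts. No clock gene was related to library depth (0 of 10 had a permutation P below 0.05 for the correlation with the log10 total). A measure of developmental consistency, the correlation of a line with the panel mean over the 1000 highest genes, ran from 0.416 to 0.921. It was related to 5 of the 10 clock genes, most of all to TOC1b, with r = -0.334 and rho = -0.315 (two-sided permutation P = 1e-05 for both). With 100000 permutations no lower P could be reached. Leaving out the 2 lines farthest in TOC1b gave r = -0.290. The shares of all genes related to depth or to consistency were not computed, so neither count is read as particular to the clock genes.

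The levels of the 10 genes spanned more than an order of magnitude in their medians. LHY had the highest median, 57.4 FPKM (fragments scaled to gene length, from counts normalized with DESeq2). It was followed by gi1 with 40.7, PRR73 with 28.1, CCA1 with 21.7, gi2 with 18.1 and conz1 with 15.7 FPKM. PRR59b (5.11 FPKM), PRR59a (3.63 FPKM), TOC1b (3.04 FPKM) and TOC1a (2.73 FPKM) formed the low end. Between neighbours in this order the interquartile ranges overlapped everywhere except between conz1, whose lower quartile was 11.8 FPKM, and PRR59b, whose upper quartile was 6.68 FPKM. Against all 20482 genes with a median above 1 FPKM, 91.1% had a lower median than LHY and 16.6% had a lower median than TOC1a.

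**Figure D1:**
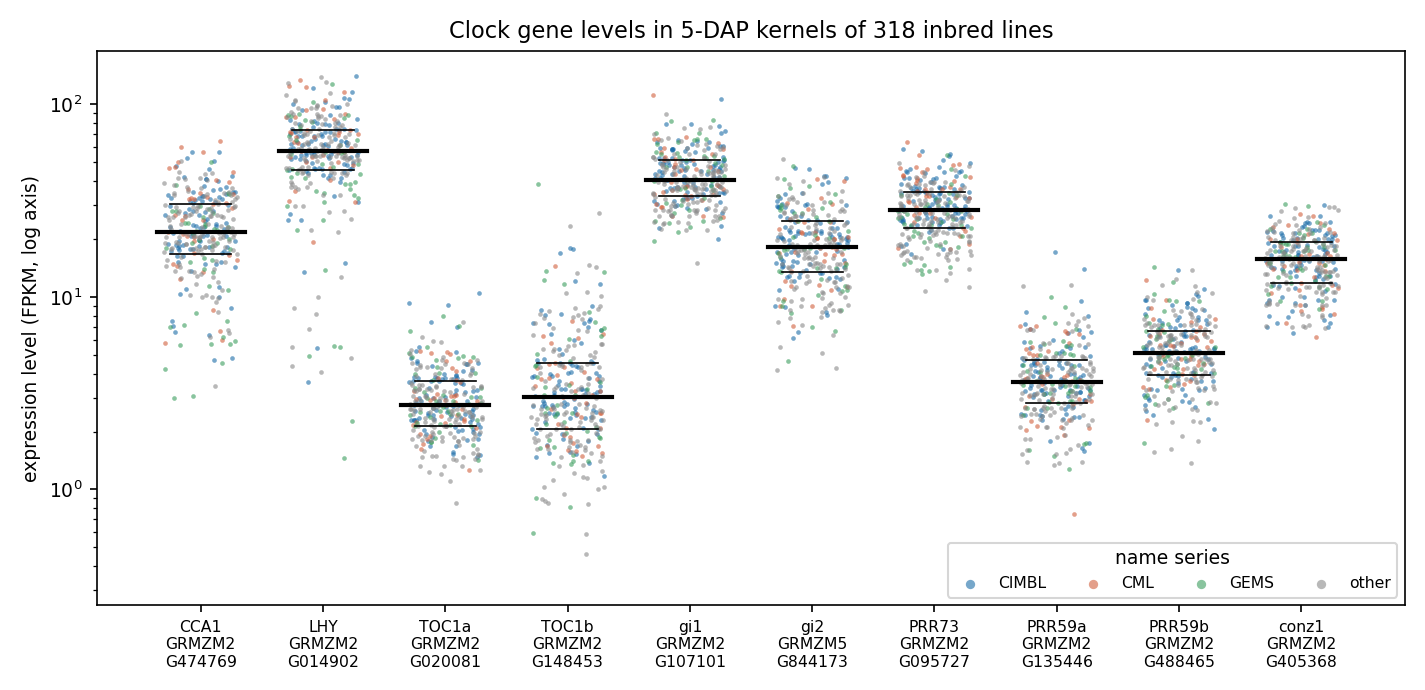
FPKM of the 10 clock genes (log axis) in 318 inbred lines, 1 point per line coloured by name series, with the median as a thick bar and the quartiles as thin bars. LHY lies highest with a median of 57.4 FPKM and a tail of lines down to 1.46 FPKM, and the TOC1 and PRR59 models lie lowest.

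LHY had the largest range of the 10, 96.3-fold. Its FPKM ran from 1.46 in GEMS1 (95% Poisson interval of the counts 1.13 to 1.85) through the median of 57.4 to 140.2 in CIMBL133 (136.4 to 144.1). The levels were heavily skewed to the low side (skewness -2.18 on the log2 scale), and 30 lines lay under 1/2 of the median while 12 lay over 2 times the median. There was no clean break in the tail. The widest step between neighbouring lines in the range from 10 to 40 FPKM was 0.34 on the log2 scale, from 15.02 to 19.26 FPKM, with 19 lines below it, and wider steps occurred only below 4 FPKM.

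CCA1, the partner of LHY, ran from 2.98 FPKM in GEMS39 through 21.7 to 64.8 FPKM in CML493, and 38 lines lay under 1/2 of its median. LHY exceeded CCA1 in 304 of 318 lines, with a median ratio of 2.49. The ratio ran from 0.321 in GEMS1 to 16.04 in GEMS42, so that some lines were low in CCA1 alone. The CCA1 locus is split in this annotation. RefSeq places GRMZM2G474769 and GRMZM2G175265 in a single gene, and the counts of that locus were therefore divided between these models. GRMZM2G175265 had a median of 17.4 FPKM and followed CCA1 across lines with r = 0.886 and rho = 0.861 (both permutation P = 1e-05), the highest r with CCA1 of any gene, and r = 0.879 without the 2 lines farthest in CCA1.

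The GIGANTEA copies differed in spread, with a coefficient of variation of 33.05% for gi1 and 45.5% for gi2. gi1 ran from 15.01 FPKM in LIAO5114 through 40.7 to 111.3 FPKM in CML304, a 7.42-fold range. gi2 ran from 4.18 FPKM, again in LIAO5114, through 18.1 to 52.1 FPKM in HZ4, a 12.5-fold range. gi1 exceeded gi2 in 316 of 318 lines (median ratio 2.37, range 0.874 to 6.52). Where reads could come from either copy, only uniquely placed reads had been counted, so ratios between copies are uncertain.

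The TOC1 models were both low and unlike each other in spread. TOC1a ran from 0.855 FPKM in TY11 through 2.73 to 10.5 FPKM in CIMBL120. TOC1b ran from 0.463 FPKM in ZHENG29 (95% Poisson interval 0.222 to 0.851) through 3.04 to 38.8 FPKM in GEMS5 (36.2 to 41.6). The coefficient of variation of TOC1b across lines was 94.4%, the highest of the 10 genes, against 12.6% expected from counting error at its median of 62.5 counts. TOC1b exceeded TOC1a in 193 lines, with a median ratio of 1.13 and extremes of 0.202 in GEMS51 and 20.7 in GY462. A total of 55 lines had TOC1b over 2 times its median, and 14 lines had TOC1a over 2 times its own.

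PRR73 and conz1 had the lowest coefficients of variation of the 10 genes, 32.6% and 32.8%, and PRR59a at 47.9% was second only to TOC1b. PRR73 ran from 10.8 FPKM in TY-HZ4 through 28.1 to 63.9 FPKM in CML325. PRR59a ran from 0.749 FPKM in CML486 through 3.63 to 17.2 FPKM in CIMBL10, and PRR59b ran from 1.37 FPKM in EN25 through 5.11 to 14.3 FPKM in GEMS5. PRR59b exceeded PRR59a in 250 lines and PRR73 exceeded PRR59b in all 318. conz1 had the narrowest range of all, from 6.19 FPKM in CML189 through 15.7 to 30.5 FPKM in GEMS35, a 4.92-fold range, and no line exceeded 2 times its median.

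Across lines the morning genes moved together and the evening genes moved together. CCA1 and LHY had r = 0.596 and rho = 0.527 on log2(FPKM + 1) (both permutation P = 1e-05), and r was 0.613 without the 2 lines farthest in CCA1. This r was 0.578 within CIMBL, 0.347 within CML, 0.521 within GEMS and 0.706 within the other lines. gi1 and gi2 had r = 0.748 and rho = 0.733 (both permutation P = 1e-05), and r = 0.742 without the 2 lines farthest in gi1. Among 20481 genes gi2 was the gene with the highest r with gi1, and CCA1 was the gene ranked 7 by r with LHY. By r with gi1, PRR73 ranked 82, PRR59b 660, TOC1a 802, PRR59a 833, TOC1b 1180 and conz1 1440. The 95th percentile of r with gi1 over all genes was 0.451, above TOC1b (0.431) and conz1 (0.401). The r of TOC1a with TOC1b was 0.495 and that of PRR59a with PRR59b was 0.475. All 28 pairs among the 8 genes other than CCA1 and LHY had a positive r, from 0.134 for TOC1a with conz1 to the value of gi1 with gi2. The share of positive pairs over all genes was not computed.

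LHY moved against 5 of the other genes. Its r was -0.472 with TOC1b (rho = -0.275), -0.370 with PRR59a (rho = -0.204), -0.329 with TOC1a (rho = -0.206), -0.308 with gi1 (rho = -0.104) and -0.294 with gi2 (rho = -0.201). Each r had a permutation P of 1e-05, whereas the rho with gi1 had a permutation P of 0.0631. Without the 2 lines farthest in LHY these r values were -0.463, -0.359, -0.316, -0.289 and -0.300. In the ranking of all genes by r with LHY, TOC1b stood at place 10 from the lowest end, PRR59a at 65, gi1 at 185 and gi2 at 245. PRR73 (r = 0.0708), PRR59b (r = -0.0288) and conz1 (r = 0.0476) had permutation P values of 0.209, 0.609 and 0.399. CCA1 shared this opposition only in part. Its r was -0.0606 with gi1 and -0.000869 with gi2 (permutation P = 0.282 and 0.988). With TOC1a its r was -0.198 (rho = -0.127), with TOC1b -0.178 (rho = -0.0439) and with PRR59a -0.119 (rho = -0.0287). With PRR73, PRR59b and conz1 the r of CCA1 was positive, at 0.218, 0.0964 and 0.141. Over all 45 pairs of the 10 genes, 31 had a positive and 8 a negative r with a permutation P below 0.05, unadjusted. The share of all gene pairs that passes was not computed, so these counts are not read as particular to the clock genes. For scale, r with LHY over all genes ran from -0.207 to 0.210 between the 5th and 95th percentiles.

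**Figure D2:**
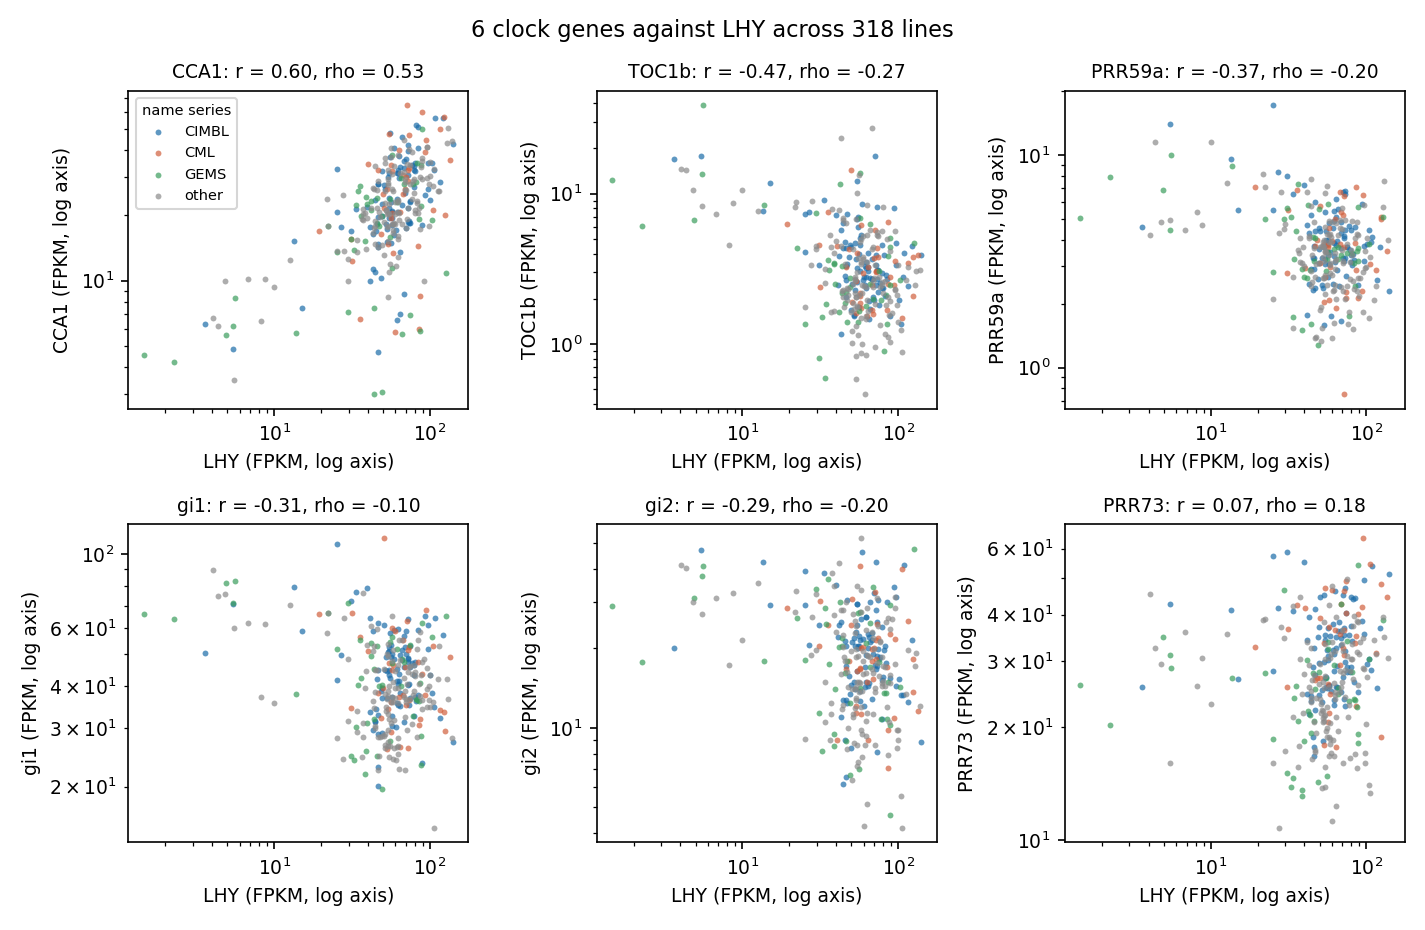
FPKM of 6 clock genes against FPKM of LHY (both axes log), 1 point per line coloured by name series, with Pearson's r of log2(FPKM + 1) and Spearman's rho over 318 lines. CCA1 falls with LHY at the left of its panel, whereas TOC1b, PRR59a, gi1 and gi2 are mostly in the upper range there and form a broad cloud without clear slope where LHY is high.

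The negative r values of LHY with the evening genes were smaller, and for gi1 turned in sign, without the lines at the extremes of LHY. The 32 lines (10% of the panel) farthest from the LHY median comprised 27 lines at or below 25.3 FPKM and 5 lines at or above 128.5 FPKM, 7 of them CIMBL, 2 CML, 8 GEMS and 15 other lines. Without them, in 286 lines, the r of LHY with TOC1b was -0.150 (permutation P = 0.0115), with PRR59a -0.0981 (P = 0.0970), with TOC1a -0.0759 (P = 0.199), with gi2 -0.0628 (P = 0.290) and with gi1 0.0538 (permutation P = 0.365). CCA1 and LHY kept an r of 0.367 (permutation P = 1e-05). The r of CCA1 was then positive with gi1 (0.152, permutation P = 0.0099) and with gi2 (0.177, permutation P = 0.0025). LHY then had a positive r with PRR73 (permutation P = 0.00067, rho = 0.228) and with PRR59b (r = 0.190, permutation P = 0.00118). Of the 45 pairs, 36 had a positive and 1 a negative r with a permutation P below 0.05, again without a share over all gene pairs. Leaving out lines by LHY also narrows the range of LHY, and that part of the fall in r was not tested.

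**Figure D3:**
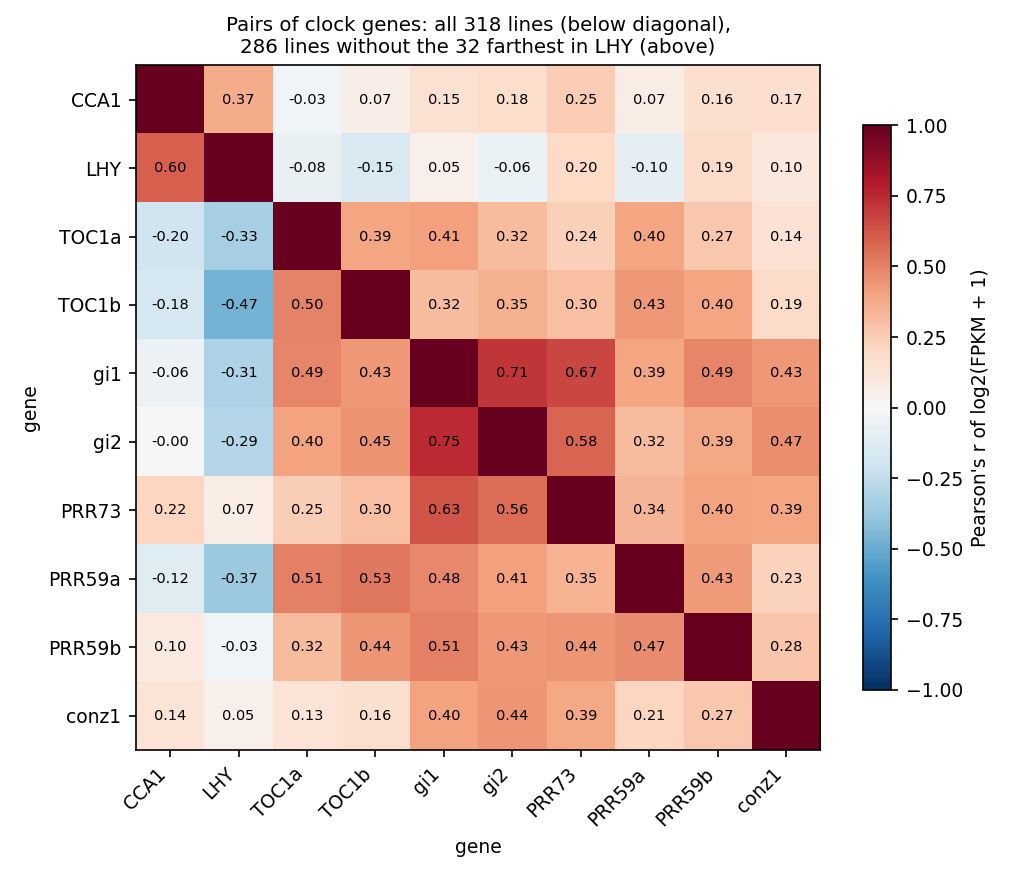
Pearson's r of log2(FPKM + 1) for each pair of the 10 clock genes, over all 318 lines below the diagonal and over the 286 lines left without the 32 farthest in LHY above it (blue negative, red positive). The blue cells of LHY below the diagonal, down to -0.47 for TOC1b, are paler or red above it, and the block of genes from TOC1a to conz1 is red on both sides.

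The same relation was tested in the counts with edgeR across all genes, as the change of each gene per doubling of LHY with the name series in the model. CCA1 rose by 0.50 ± 0.04 (SE) on the log2 scale per doubling of LHY (quasi-likelihood adjusted P = 5.48e-28, 318 lines). TOC1b fell by 0.47 ± 0.04 (adjusted P = 2.64e-19), PRR59a by 0.25 ± 0.03 (2.28e-12), gi2 by 0.20 ± 0.03 (8.80e-07), TOC1a by 0.19 ± 0.03 (7.65e-08) and gi1 by 0.16 ± 0.02 (4.58e-09). PRR73 (0.00 ± 0.02), PRR59b (-0.04 ± 0.03) and conz1 (0.04 ± 0.03) did not pass, with edgeR adjusted P of 0.934, 0.3998 and 0.298. Thus 1 of the 9 genes was called higher and 5 were called lower, where 11.8% and 12.6% of 26066 genes were called higher and lower. The median slope was -0.16 for the 9 clock genes and 0.00 for all genes.

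**Figure D4:**
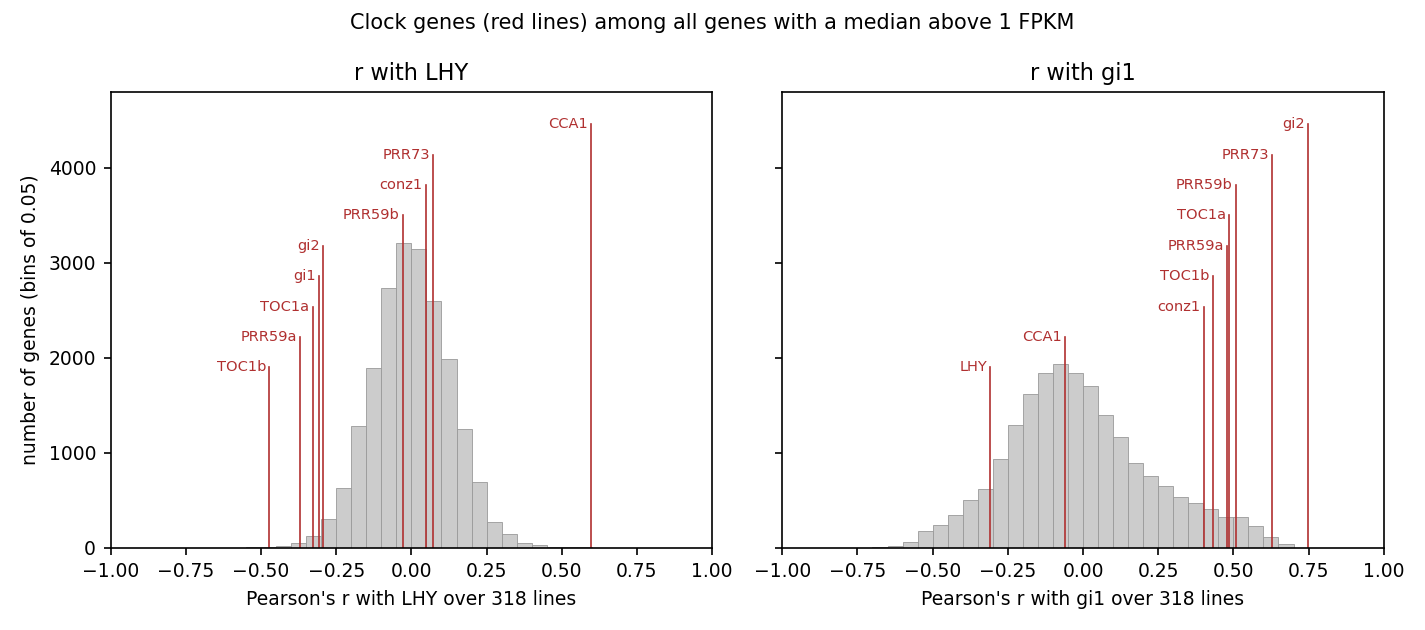
Number of genes (bins of 0.05) by Pearson's r with LHY (left) and with gi1 (right) over 318 lines, among genes with a median above 1 FPKM, with each clock gene as a red line whose height has no meaning. With LHY, 5 clock genes lie at r of -0.29 or below and CCA1 at 0.60. With gi1 all clock genes but LHY and CCA1 lie at 0.40 or above, where the 95th percentile of all genes is 0.45.

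In the 286 lines without the LHY extremes, edgeR called 4 clock genes higher with LHY and 1 lower, against backgrounds of 23.2% and 23.4% of genes. TOC1b still fell (-0.31 ± 0.11, adjusted P = 0.0169), gi1 had a slope of 0.02 ± 0.05 (0.773), and CCA1 (0.55 ± 0.08), PRR59b (0.19 ± 0.07), PRR73 (0.16 ± 0.05) and conz1 (0.14 ± 0.06) rose. The calls differed again when the first 10 principal components of all expressed genes, which carry the broad variation among libraries, were added as covariates. Over all 318 lines 1 of 9 clock genes was then called higher and 6 lower, against 8.46% and 7.76% of genes, and gi1 fell by 0.22 ± 0.02 per doubling of LHY (edgeR adjusted P = 1.80e-25). In the same 286 lines with the components added, TOC1b (-0.66 ± 0.10), gi2 (-0.48 ± 0.08), PRR59a (-0.35 ± 0.07), gi1 (-0.30 ± 0.04), PRR59b (-0.23 ± 0.07) and PRR73 (-0.23 ± 0.05) were lower with LHY and CCA1 (0.49 ± 0.11) was higher, with edgeR adjusted P from 7.30e-09 for gi1 to 0.0130 for PRR59b. That made 6 of 9 lower and 1 of 9 higher, against 5.77% and 6.05% of all genes. TOC1a was not called in the 286 lines with or without the components. PRR59b and PRR73, lower here, had been called higher in these lines without the components. The components were computed from all genes, the clock genes included, and the choice to leave out the 32 lines was made after the data had been seen.

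Relations with gi1 were broader. The edgeR model called 26.1% of the 26066 genes tested higher and 29.6% lower with gi1. Most of the genes tested were thus called in this fit, but far fewer with the components added, as given below. Of the 9 other clock genes, 7 rose with gi1 and 1 fell. Per doubling of gi1, gi2 rose by 1.05 ± 0.06 (edgeR adjusted P = 6.37e-50), TOC1b by 1.04 ± 0.11, PRR59b by 0.66 ± 0.06, PRR59a by 0.63 ± 0.06, TOC1a by 0.62 ± 0.06, PRR73 by 0.62 ± 0.04 and conz1 by 0.44 ± 0.06, all with adjusted P of 2.21e-13 or below. LHY fell by 0.31 ± 0.10 (edgeR adjusted P = 0.00607), and CCA1 had a slope of -0.04 ± 0.09 (0.741). The slope of LHY on gi1 was 0.09 ± 0.07 (edgeR adjusted P = 0.222) without the 32 lines farthest in LHY, where 8 of 9 clock genes were called higher and 0 lower against 27.2% and 30.2% of genes, and -1.15 ± 0.11 (2.26e-17) with the 10 components added. With the components, 5 of 9 clock genes were called higher and 2 lower, against 5.55% and 5.72% of genes, and PRR59b and conz1 were no longer called, with edgeR adjusted P of 0.211 and 0.384. With both changes 4 were called higher and 1, LHY (-0.45 ± 0.07), lower, against 1.33% and 1.45% of genes.

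Markers of kernel tissue and of leaf were set beside genes in general in their relation with gi1. Of the 9 tested, 3 of them leaf genes, 1 was called higher and 4 lower, against 26.1% and 29.6% of all genes. These numbers are too small to be set apart from those shares. The carpel and ovule genes zag2 (median 195.5 FPKM) and ZAG1 (196.6 FPKM), both MADS-box factors, fell by 0.42 ± 0.05 and 0.17 ± 0.03 per doubling of gi1 (edgeR adjusted P = 5.13e-17 and 4.06e-06). Of the transfer cell genes of the endosperm, MRP1 rose by 0.77 ± 0.14 (8.26e-07) and mn1, a cell wall invertase, fell by 0.58 ± 0.12 (edgeR adjusted P = 8.29e-06). The leaf gene ssu1, a subunit of Rubisco, fell by 0.46 ± 0.13 (edgeR adjusted P = 0.00111). With LHY, 1 of the 9 was called higher and 0 lower, against 11.8% and 12.6% of all genes. This was me3, a leaf malic enzyme, which rose by 0.29 ± 0.11 (edgeR adjusted P = 0.0427). The summed level of the 2 carpel genes ran from 182.4 to 697.5 FPKM, that of the 3 transfer cell genes from 3.41 to 241.5 FPKM, that of the 3 starchy endosperm genes from 6.33 to 23.9 FPKM, that of the 3 genes of the embryo surrounding region from 0 to 23.6 FPKM, and that of the 4 leaf genes from 1.86 to 165.8 FPKM. BETL1, o2 and the ESR genes esr1 and ESR3 had a median of 0. The r of these summed levels with the morning-evening balance described next was 0.214 or below, and the part of tissue makeup in the relations of the clock genes was not tested. In pooled whole kernels fewer cells of a type and less RNA per cell cannot be told apart.

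The balance of the clock was expressed for each line as the mean log2(FPKM + 1) of CCA1 and LHY minus that of TOC1a, TOC1b, gi1 and gi2. The 0 of this scale is set by which genes enter it and by their levels, so it marks no hour. Counts of lines below 0 describe this scale only. The balance ran from -2.43 to 3.69 with a median of 1.84 (SD 0.99, 318 lines), and 20 lines (6.29%) were below 0. That share was 19.8% (63 lines) for LHY minus gi1 alone and 35.5% with each gene standardized. The 20 lines comprised 9 of the other lines, 7 of 46 GEMS lines, 4 of 98 CIMBL lines and 0 of 40 CML lines. The medians were 2.06 in CML, 1.92 in the other lines, 1.76 in CIMBL and 1.64 in GEMS. The means, in the same order, were 1.91, 1.76, 1.67 and 1.19. The SD between lines was 0.71 in CML, 0.98 in the other lines, 0.83 in CIMBL and 1.33 in GEMS. Differences of the balance between series were not tested. The balance was not tied to depth (r = 0.0388 with the log10 total) or to developmental consistency (r = 0.0244), and these r values over 318 lines are given as descriptions.

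**Figure D5:**
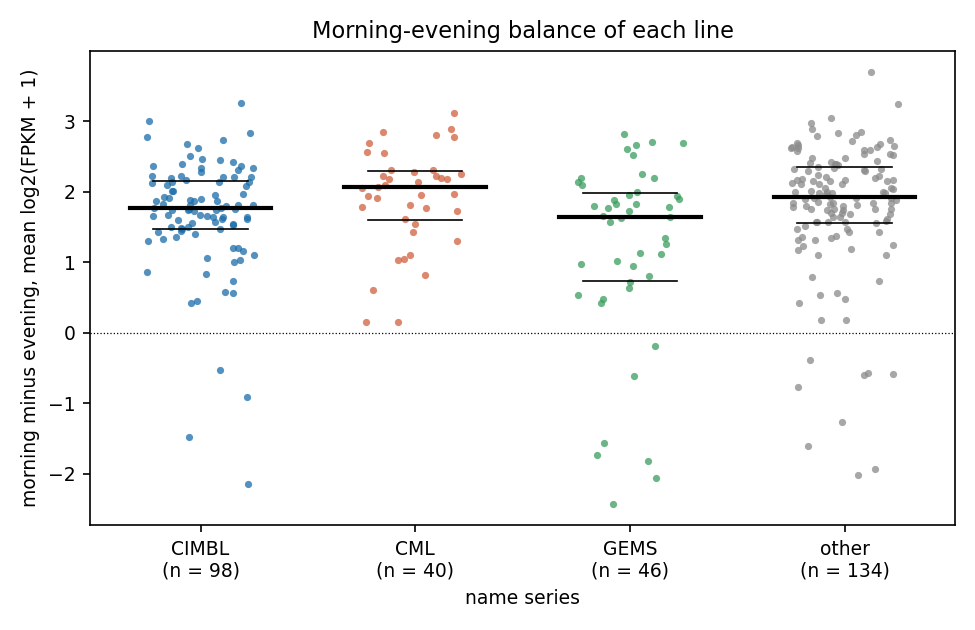
Morning-evening balance (difference of mean log2(FPKM + 1), no unit) of each line by name series, with the median as a thick bar, the quartiles as thin bars and 0 as a dotted line. Most points lie between 1 and 3, and 20 lines lie below 0, none of them CML.

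The lines at the low end are described by their values, which the balance itself selected. GEMS1, with the lowest balance of -2.43, had 4.54 FPKM of CCA1 and 1.46 FPKM of LHY beside 12.3 FPKM of TOC1b, 66.1 FPKM of gi1 and 28.9 FPKM of gi2. CIMBL6 (balance -2.14) had 4.84 FPKM of CCA1, 5.45 FPKM of LHY, 17.7 FPKM of TOC1b and 70.8 FPKM of gi1. GEMS5 (-2.06) had 8.27 FPKM of CCA1, 5.59 FPKM of LHY, 38.8 FPKM of TOC1b and 83.1 FPKM of gi1. BZN (-2.03) and W138 (-1.94) had 4.36 and 4.06 FPKM of LHY and 14.3 and 14.7 FPKM of TOC1b. Of the genes that did not enter the balance, PRR59a was above its median in all 5 lines at 4.204 to 13.9 FPKM, and PRR73 ran from 26.02 to 45.5 FPKM on both sides of its median.

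At the high end, LIAO5114 had the highest balance of 3.69, with 32.9 FPKM of CCA1 and 105.6 FPKM of LHY beside 0.892 FPKM of TOC1b and the panel's lowest levels of gi1 (15.01 FPKM) and gi2 (4.18 FPKM). It was followed by CIMBL133 (3.26), WU109 (3.25), CML165 (3.12) and YE8001 (3.04). LHY ran from 104.4 to 140.2 FPKM and gi1 from 15.01 to 35.99 FPKM in these 5 lines, and TOC1b was above its median in 3 of them. The ratio of LHY to gi1 in FPKM thus ran from 0.0220 in GEMS1 to 7.03 in LIAO5114, with LHY above gi1 in 255 of 318 lines. The totals of these 10 libraries, 11161605 to 17909008 counts, lay inside the range of the panel.

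Genes outside the set were ranked by their likeness to the balance. Among genes with a median above 1 FPKM, the highest r with the balance belonged to GRMZM2G145041 (named MYBE1 in RefSeq), with r = 0.817 over 318 lines and 0.551 without the 32 lines. It was followed by GRMZM2G302245 (r = 0.752), GRMZM2G062129 (0.629), GRMZM2G125635 (0.605) and GRMZM2G175265 (0.596), the second model of the CCA1 locus. Without the 32 lines their r values were 0.355, 0.358, 0.308 and 0.499. The first 4 were also the 4 genes with the highest r with LHY, from 0.651 to 0.804. The lowest r belonged to GRMZM2G052908 (-0.592), GRMZM2G113129 (-0.591), GRMZM5G815358 (-0.541, in the RefSeq gene named Pds), GRMZM2G031143 (-0.493) and GRMZM2G174202 (-0.488). Without the 32 lines these ran from -0.355 to -0.248. These values describe likeness to a measure built from the clock genes, and points share the same libraries.

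Some other genes tied to light and the clock were also related to LHY or gi1. With LHY 11.8% of all genes were called higher and 12.6% lower, and with gi1 26.1% and 29.6%, and the lists are too short to be set apart from these shares. Of the CONSTANS-like genes other than conz1, 4 of 5 could be tested, and COL10 fell by 0.29 ± 0.07 per doubling of LHY (edgeR adjusted P = 3.58e-04) while none rose. With gi1, 3 of these 4 rose by 0.49 each, COL5, COL10 and the COL14 model GRMZM2G042198, with edgeR adjusted P of 0.00549, 0.00687 and 1.59e-04. COL10 and this COL14 model were low, with medians of 0.129 and 0.869 FPKM, and COL10 had 0 counts in 51 lines. Of 5 phytochrome models, PhyB2 rose by 0.19 ± 0.06 with LHY (edgeR adjusted P = 0.00911) and the PHYC model GRMZM2G129913 by 0.15 ± 0.03 (1.87e-05), whereas PhyB1, the other PHYC model GRMZM2G129889 and phyA2 rose with gi1. Among the 6 chlorophyll a-b binding genes tested, which code for light-harvesting proteins of the chloroplast, lhcb4 rose by 0.60 ± 0.10 (1.59e-07) and lhcb7 by 0.40 ± 0.09 (edgeR adjusted P = 1.39e-04) with LHY, and none fell. The slope of lhcb4 was larger than that of any clock gene in this fit, but its median was only 0.202 FPKM, with 0 counts in 10 lines. The summed level of these light-harvesting genes was low, with a median of 7.75 FPKM. The RefSeq names held no further REVEILLE, PRR, evening complex or GIGANTEA genes beyond the 10.

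Levels also differed by name series in some members, where 38.6% of 26067 genes did in edgeR. The F-test over the 4 series called 4 of 10 clock genes, PRR73 (adjusted P = 5.95e-10), CCA1 (8.57e-04), gi1 (0.0102) and TOC1a (0.0165), a share close to the background. PRR73 had medians of 31.2 FPKM in CIMBL, 35.2 FPKM in CML, 24.9 FPKM in GEMS and 25.7 FPKM in the other lines. It was 0.33 ± 0.06 higher on the log2 scale in CIMBL (edgeR adjusted P = 1.13e-06) and 0.43 ± 0.08 higher in CML (3.77e-06) than in the other lines. CIMBL lines were also higher in TOC1a (0.24 ± 0.08, edgeR adjusted P = 0.00878) and gi1 (0.21 ± 0.06, 0.00375), which made 3 of 10 higher and 0 lower, where 12.9% and 16.1% of genes were. In CML, 1 of 10 was higher and 0 lower, against 7.62% and 10.4% of genes.

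In GEMS lines CCA1 had a median of 18.7 FPKM against 21.3 FPKM in the other lines. It was lower by 0.36 ± 0.12 (edgeR adjusted P = 0.0479), the single member called there, against 4.26% of genes called lower and 3.99% called higher. This call was lost under DESeq2 (adjusted P = 0.0631), under RLE normalization (edgeR adjusted P = 0.0520), without the filter on low counts (0.0505) and with consistency as a covariate (0.126). The ranges of all series overlapped for every member, and series, ancestry and field handling cannot be told apart.

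The slopes on LHY were alike in sign across series for the members called. TOC1b had slopes of -0.51 in CIMBL, -0.38 in CML, -0.48 in GEMS and -0.45 in the other lines, and CCA1 had slopes of 0.57, 0.57, 0.44 and 0.49. The interaction of series and LHY was called for 0 of 9 clock genes in edgeR, where 1.05% of genes were called, with 0 of 9 at an unadjusted P below 0.05 and a smallest adjusted P of 0.720 for PRR59a. A P above the threshold does not show that the slopes were the same, and the CML slopes rest on 40 lines with 2 of the 32 LHY extremes.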

How the data were processed

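Per the labels, seeds of the 3 field blocks were mixed for each line, poly-A RNA was selected, and paired 125 bp reads were sequenced. The authors cleaned the reads, aligned them with TopHat2 to the B73 AGPv3 genome without regard to strand, kept uniquely mapped reads and deposited raw counts per gene for an Ensembl gene set. Reads of a gene and an overlapping antisense gene cannot be told apart. The authors also deposited FPKM values, made from the counts after normalization with DESeq2. Both tables hold 39625 genes in 318 lines, all columns were matched to a line by name (0 were not), and 282 lines are listed in the study's mapping table.

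Counts were tested with edgeR 4.0.16 (TMM factors, glmQLFit, quasi-likelihood F-test, R 4.3.3), keeping 26067 genes with at least 10 counts in 40 lines, all 10 clock genes among them. P values were adjusted by Benjamini-Hochberg over all genes tested, with a threshold of 0.05. SE was taken as the size of the log2 value divided by the square root of F. LHY or gi1 entered as its log2 CPM. limma 3.58.1 and DESeq2 1.42.0 served as alternatives, beside those given in the closing part. Each line is a single library, so P values measure the spread between lines, and Poisson intervals (95%) cover counting error only. Lines were treated as independent. Relatedness among them was not modelled beyond the name series, and the permutations left out the series too. The paper's association tests, by contrast, used genotype components and a kinship matrix. Correlations used log2(FPKM + 1), a pseudocount of 1, and 100000 two-sided permutations (numpy 2.4.6). They were not adjusted over the 45 pairs. The fits were also run on simulated counts with known changes. Those counts had a common dispersion, genes drawn independently and a random level in place of LHY or gi1. That run therefore does not cover variation shared among genes.

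Names came from the list of clock genes and from RefSeq synonyms, which held 19059 of the 39625 identifiers and 9 of the 10 members (not TOC1b). The genes named were the 10 members, listed related genes (all of a list of up to 6, otherwise the 4 with the smallest P in the relation with LHY), the 5 other genes highest and the 5 lowest in r with the balance, and the 5 lines at each end. The members and lists were chosen with earlier results of these data known. Sequences were not analysed here.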

Additional observations from a re-analysis of the deposited data

How the results depend on the processing

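No paired analysis was possible because each line had 1 library and replicate numbers only name the lines. Of the counts and medians that summarise a comparison, 93 stayed within 1.5 times (or 1 SD) of the value given and 20 did not. In GEMS the 1 member called became 0 under RLE normalization, without the filter and under DESeq2, and 2 in the listed lines, and DESeq2 called 1262 genes rather than 2151. In CML the 1 member called became 2 in the listed lines. Genes called with LHY (6370) became 4230 with 10 components, 12013 without the 32 lines and 3048 with both. Genes called with gi1 (14533) became 2936 with 10 components and 718 with both, where 5 of the 8 members were called. Positive pairs (31) became 13 within CML. Negative pairs (8) became 5 by Spearman's rho, by CPM and within CIMBL, and 1 within CML and without the 32 lines. The median balance became 0.56 for LHY minus gi1 alone and 0.26 with standardized genes, other scales by construction, and the share of lines below 0 went from 6.29% to 19.8% and 35.5%. 

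Directions turned mostly without the 32 lines: with LHY, the slopes of gi1 (0.0203) and PRR59b (0.19), and with gi1, those of CCA1 (0.25) and LHY (0.0933). PRR73 turned to -0.23 with LHY when components were also added, and conz1, not called in either fit, to -0.20 from 0.04. The r of LHY with gi1 (0.0538), of CCA1 with TOC1b (0.0686) and of CCA1 with PRR59a (0.0727) turned positive without these lines. By CPM the r of CCA1 with PRR59a was 0.00391, within CML that of CCA1 with TOC1b was 0.0122 and of PRR59a with conz1 -0.0419, and within GEMS that of TOC1b with conz1 was -0.0108. The cause was not tested. Dropping lines or using both sets of choices was decided after seeing the data. Depth limits TOC1a, TOC1b, PRR59a and PRR59b, whose median counts were 99.5, 62.5, 152.5 and 72.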

Other observations

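CCA1 and LHY parted in a set of lines that the balance does not single out. GEMS39 had the lowest CCA1 of the panel, 2.98 FPKM, and the ratio of LHY to CCA1 reached 16.04 in GEMS42. CCA1 lay under 1/2 of its panel median in 14 of 46 GEMS lines, 9 of 98 CIMBL lines, 4 of 40 CML lines and 11 of the other lines, and LHY did so in 8, 7, 1 and 14 lines. The second model of the CCA1 locus, GRMZM2G175265, followed CCA1 with r = 0.905 within the 46 GEMS lines.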
